A study of Rattus norvegicus with 12 samples.

Results

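Epithelial kallikreins and surface serine proteases of the rat esophagus were followed through 10 genes, set by name: the secreted kallikreins Klk6, Klk7, Klk8, Klk10, Klk11, Klk12 and Klk13, the inhibitor Spink5, and the membrane-anchored proteases Tmprss11a and Tmprss11d. They made up 10 of the 17186 gene symbols in the expression table and took 11 of its 17450 rows, since Spink5 had 2 rows. Of the 113141 m6A peaks over all lists, 62 named a member. All 11 rows passed the filter on low counts.

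The BE group was esophageal tissue of Rattus norvegicus after esophagoduodenostomy, an operation that joins esophagus to duodenum so that duodenal contents reach the esophagus, a setting in which Barrett's esophagus is studied in rats. The NC group was esophageal tissue of rats with no treatment, and no sham-operated group is labelled. The sources used here do not give strain, sex, age or time after the operation. They do not say whether samples were separate animals or pools either, so the spread behind each p-value is that between samples and may be technical. The series held 12 libraries, with 3 input and 3 IP libraries of BE and as many of NC. Input libraries gave gene counts. IP libraries, enriched by antibody for RNA that carries m6A (N6-methyladenosine, a methylated base of messenger RNA), gave peak lists.

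Tissue kallikreins are secreted serine proteases whose genes lie side by side. In stratified epithelium they leave the upper cells in lamellar granules, activate each other by cleaving off propeptides, and cut the desmosomal proteins that hold surface cells together, so that these cells are shed. Spink5 encodes LEKTI, an inhibitor of many domains that restrains them, and its loss in humans causes Netherton syndrome. Proteases of the Tmprss11 family sit in the plasma membrane with their catalytic domain outside the cell.

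Total gene counts ran from 15543460 to 17471748 in BE input and from 11213531 to 16863737 in NC input, while IP depth is unknown. Levels are CPM, counts divided by library size and scaled by the TMM method, and compare a gene between libraries but not genes with each other, since no transcript lengths were used. Squamous markers were abundant in every library: 11 suprabasal genes such as Krt4 and Krt13 summed to 52183 to 58924 CPM in BE and 34796 to 47380 CPM in NC. Of 12 striated muscle markers, 11 fell, beside 21.8% of all genes tested. The 12 summed to 2650 to 3716 CPM in BE and 59649 to 64047 CPM in NC. Columnar markers summed to 131 to 201 CPM in BE and 73.3 to 78.2 CPM in NC, with Epcam at 153, 171 and 129 CPM in BE replicates 1 to 3 and 76.9, 72.9 and 72.3 CPM in NC replicates 1 to 3. Krt18 and Krt8 had 33.5 and 9.33 CPM in BE replicate 1 and at most 0.631 CPM in the other input libraries, and Vil1 and Muc2 had no counts in BE. Cdh17 had 86 and 9 counts in BE replicates 1 and 3, and 1 count in NC replicate 3. Lgals4 had 10 and 12 counts in BE replicates 2 and 3, and 1 count in NC replicate 2. Krt20 had 38 counts in BE replicate 2 and Fabp2 10 in BE replicate 1, with none in the other input libraries. BE input replicate 1 stood apart in 10 hepatocyte markers, at 7505 CPM against 12.6 to 20.9 CPM in the other 5 input libraries, and member results without it follow.

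The promoters of the members were searched for short motifs, as a description without a test. RefSeq (build GRCr8) gave a window from 250 bases before to 50 bases after the annotated start for 8 of the 10 members. They were searched on both strands for TGANTCA, the site of AP-1 factors, which occurred in 3 of these 8 and in 7.33% of 27457 windows of the same length. The windows of Klk10, Klk11 and Klk13, which rose too, and that of Spink5 had no match. The 3 windows with the site are shown with it in capitals, beside that of Klk7, which rose and held no such letters. All are on the plus strand: Klk6 at chr1:103415266-103415565, Klk12 at chr1:103359077-103359376, Tmprss11d at chr14:22108279-22108578 and Klk7 at chr1:103403466-103403765.
Klk6: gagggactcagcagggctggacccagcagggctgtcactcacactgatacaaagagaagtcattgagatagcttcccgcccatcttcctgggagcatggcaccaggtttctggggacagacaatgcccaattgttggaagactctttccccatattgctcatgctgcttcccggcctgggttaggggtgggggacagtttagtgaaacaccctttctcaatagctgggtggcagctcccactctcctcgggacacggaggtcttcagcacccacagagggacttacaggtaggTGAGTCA
Klk12: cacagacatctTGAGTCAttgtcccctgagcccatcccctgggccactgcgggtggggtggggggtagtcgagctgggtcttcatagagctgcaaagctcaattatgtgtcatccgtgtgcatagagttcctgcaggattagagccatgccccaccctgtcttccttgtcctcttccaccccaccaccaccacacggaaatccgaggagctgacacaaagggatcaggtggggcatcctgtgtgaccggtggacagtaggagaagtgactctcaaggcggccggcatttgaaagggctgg
Tmprss11d: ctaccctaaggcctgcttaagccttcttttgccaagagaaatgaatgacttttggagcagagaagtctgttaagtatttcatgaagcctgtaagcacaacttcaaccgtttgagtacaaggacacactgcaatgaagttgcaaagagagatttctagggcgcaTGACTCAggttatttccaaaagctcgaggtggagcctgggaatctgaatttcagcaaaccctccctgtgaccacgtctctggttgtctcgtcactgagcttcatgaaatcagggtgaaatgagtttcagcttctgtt
Klk7: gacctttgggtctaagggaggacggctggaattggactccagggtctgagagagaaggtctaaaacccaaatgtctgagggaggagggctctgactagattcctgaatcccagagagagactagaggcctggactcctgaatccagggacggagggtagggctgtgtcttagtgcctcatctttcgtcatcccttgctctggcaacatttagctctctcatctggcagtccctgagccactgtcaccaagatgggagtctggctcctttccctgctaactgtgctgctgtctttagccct
Counted from the start base as 0, the site began at 43 in Klk6, -239 in Klk12 and -87 in Tmprss11d. A second search, for TATAAA on both strands, matched only the Spink5 window among the 8, against 14.3% of all windows. A match of letters is a description and not a bound site.

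The comparison of input libraries asked whether RNA of these proteases differed between operated and untreated esophagus. All 7 kallikreins and Tmprss11d rose in BE, while Spink5 and Tmprss11a did not pass. Thus 8 of 10 members were called higher and none lower by edgeR's quasi-likelihood test at a Benjamini-Hochberg adjusted p under 0.05 over all 13761 genes tested, of which 21.8% were called higher and 21.8% lower. At least 2-fold rises were called in 6 members, beside 10.3% of all genes. In 8 of 10 members every BE library lay above every NC library, as in 28.2% of all genes tested. Spink5 is counted here by its row with more counts. The median log2 fold change of BE over NC was 1.92 over the members and 0.03 over all genes. In bulk tissue, a larger share of squamous cells and more RNA per cell cannot be told apart.

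**Figure D1:**
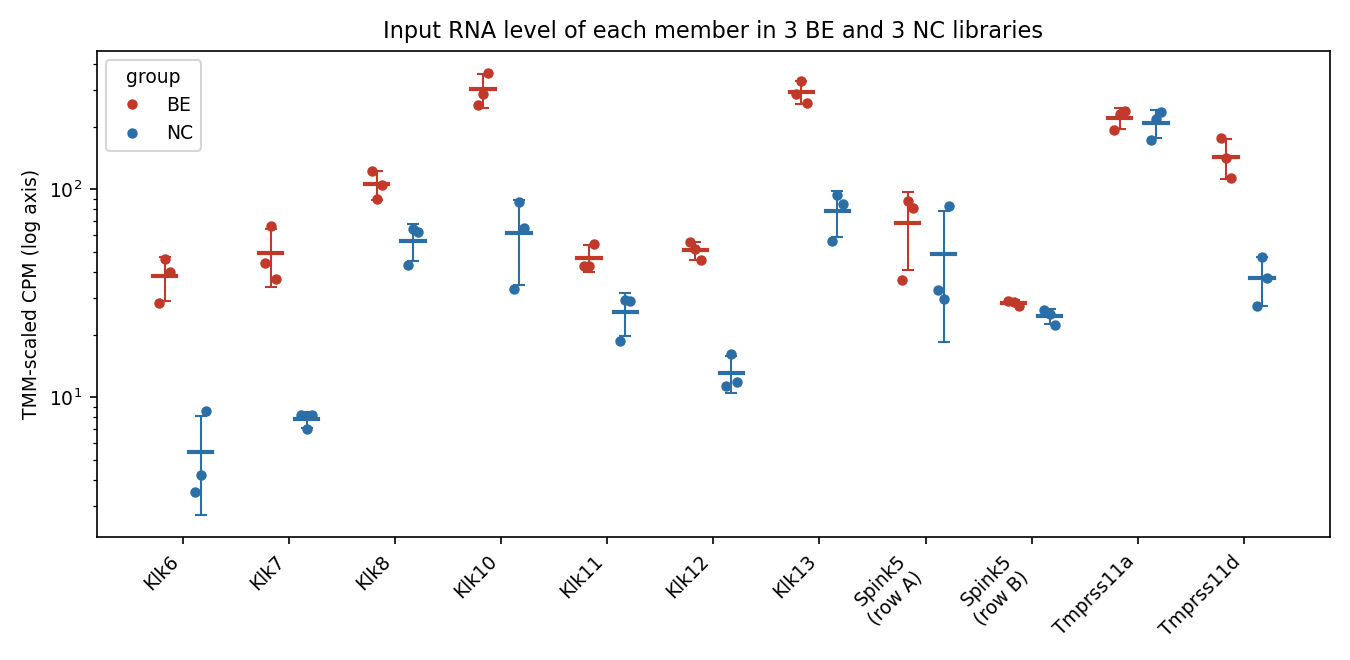
TMM-scaled CPM on a log axis for each row of the member genes, with a point per input library, a bar at the group mean and whiskers of 1 SD (n = 3 per group, BE in red left of NC in blue; Spink5 row A is the row with more counts). The 3 BE points lie above the 3 NC points for the 7 kallikreins, Tmprss11d and, by a small gap, Spink5 row B. The groups interleave for Tmprss11a and Spink5 row A.

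Klk6, a trypsin-like kallikrein also made in the nervous system, had the largest fold change among the members. It stood at 28.3, 46.3 and 40 CPM in BE replicates 1 to 3, against 3.52, 4.23 and 8.55 CPM in NC replicates 1 to 3. The groups did not overlap, and the log2 fold change was 2.80 ± 0.35 (SE; edgeR adjusted p = 0.000229). Markers of oligodendrocytes and Schwann cells went the other way, with sums over 7 genes of 32.0 to 46.8 CPM in BE and 129 to 311 CPM in NC.

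Klk7, the chymotrypsin-like kallikrein that cuts corneodesmosin in skin, had 44.1, 66.4 and 37.2 CPM in the BE replicates, against 8.25, 7.05 and 8.19 CPM in the NC replicates. Every BE library lay above every NC library, and the NC libraries lay within 1.17-fold of each other. Its log2 fold change was 2.65 ± 0.24 (edgeR adjusted p = 1.78e-05).

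Klk10, a kallikrein of normal epithelial cells, reached 255, 288 and 362 CPM in BE, against 33.1, 86.6 and 65.1 CPM in NC. All BE values were higher, but NC spread 2.62-fold, with replicate 1 lowest. The log2 fold change was 2.29 ± 0.38 (edgeR adjusted p = 0.00483). Klk13, a trypsin-like kallikrein also described in human esophagus, had 287, 332 and 261 CPM in BE, against 56.3, 93.9 and 85.3 CPM in NC. Again no values overlapped, and the log2 fold change was 1.9 ± 0.19 (edgeR adjusted p = 6.37e-05).

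Klk12, a trypsin-like kallikrein, was at 55.6, 51.6 and 45.6 CPM in BE and at 11.4, 16.1 and 11.8 CPM in NC. The groups were clear of each other, with a log2 fold change of 1.96 ± 0.19 (edgeR adjusted p = 2.58e-05). Klk8 and Klk11 rose least of the 7. Klk8, also called neuropsin, had 123, 89.6 and 104 CPM in BE against 43.4, 64.1 and 62.5 CPM in NC, a log2 fold change of 0.90 ± 0.18 (edgeR adjusted p = 0.00240). Klk11 had 42.7, 42.8 and 54.7 CPM in BE against 18.7, 29.5 and 29.0 CPM in NC, a log2 fold change of 0.86 ± 0.20 (edgeR adjusted p = 0.00656). Neither of these genes overlapped between the groups.

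Tmprss11d, known in humans as the airway trypsin-like protease, had 176, 141 and 113 CPM in BE, against 27.4, 47.4 and 37.4 CPM in NC. No BE library came down to the NC range, and the log2 fold change was 1.93 ± 0.23 (edgeR adjusted p = 0.000250). Tmprss11a, of the same protease family, showed no such gap, with 191, 229 and 238 CPM in BE and 172, 218 and 234 CPM in NC. The groups overlapped, and the log2 fold change of 0.08 ± 0.14 did not pass (edgeR adjusted p = 0.692).

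The 2 rows of Spink5 behaved differently among the libraries. The row with more counts, ENSRNOG00000013116, had 36.7, 87.7 and 81.4 CPM in BE and 32.8, 29.7 and 83.2 CPM in NC. BE replicate 1 was thus near the lower NC libraries and NC replicate 3 among the higher BE libraries, and the log2 fold change of 0.50 ± 0.56 did not pass (edgeR adjusted p = 0.534). It depended on single libraries, at 1.13 without NC replicate 3 (edgeR adjusted p = 0.0707), 0.81 without BE replicate 1, 0.28 without BE replicate 2, 0.28 without NC replicate 1 and 0.24 without NC replicate 2, and passed in none of these. The second row, ENSRNOG00000048953, varied little, at 29.0, 28.8 and 27.6 CPM in BE and 26.2, 25.3 and 22.3 CPM in NC. All its BE values lay above its NC values, as in 28.2% of all genes tested. Its log2 fold change of 0.21 ± 0.16 did not pass (edgeR adjusted p = 0.316). Summed before the fit, a choice made after their values were seen, the 2 rows gave 97.0 ± 27.4 CPM in BE and 73.1 ± 28.1 CPM in NC (SD, n = 3 each). The log2 fold change of the sum was 0.41 ± 0.33 (edgeR adjusted p = 0.365). Kallikreins and Tmprss11 genes belong to multigene families and Spink5 has these 2 rows, and the sources used here do not say how shared reads and strand were handled in counting.

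Across the 10 members, NC replicate 1 was the lowest NC library for 8, and the 7 kallikreins summed to 175 CPM there and to 302 and 270 CPM in NC replicates 2 and 3. In BE replicates 1 to 3 they summed to 835, 917 and 905 CPM. The same 8 members were called higher without BE replicate 1, the library with hepatocyte transcripts, and without NC replicate 1.

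The chromosomal neighbours of the members were compared with them next. In the GRCr8 annotation Klk14, Klk13, Klk12, Klk11, Klk10, Klk9, Klk8, Klk7 and Klk6 follow in this order among the kallikrein genes of chromosome 1. All 9 rose, beside 21.8% of all genes tested. The expression table held 10 kallikrein symbols, these 9 and Klk1. Klk5 and Klk4, next after Klk6 in the annotation, were not among them. Klk14, a trypsin-like kallikrein, averaged 181 ± 91.4 CPM in BE and 16.3 ± 6.83 CPM in NC (SD, n = 3 each), a log2 fold change of 3.46 ± 0.55 (edgeR adjusted p = 0.00561). Klk9 averaged 122 ± 9.81 CPM in BE and 64.0 ± 15.1 CPM in NC, a log2 fold change of 0.93 ± 0.17 (edgeR adjusted p = 0.00151). Klk1, the glandular kallikrein, had 4 counts in all, in 1 NC library, and was not tested. Of 7 tested genes listed as flanking the cluster, Ctu1 rose by 0.98 on the log2 scale, Etfb fell by 0.59 on that scale, and the other 5 did not pass. Over all genes tested, 21.8% were called higher and 21.8% lower.

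Among 6 tested genes of the Tmprss11 family, 4 rose and 2 did not pass, beside 21.8% of all genes called higher. Tmprss11g and Tmprss11e had log2 fold changes of 3.97 ± 0.22 and 3.88 ± 0.15, above that of the member Tmprss11d, and Tmprss11bnl one of 2.12 ± 0.15 (edgeR adjusted p of 7.89e-07, 7.59e-08 and 3.10e-06). Tmprss11f, at 29.3 ± 9.84 CPM in BE and 28.6 ± 5.21 CPM in NC, did not pass, like Tmprss11a.

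**Figure D2:**
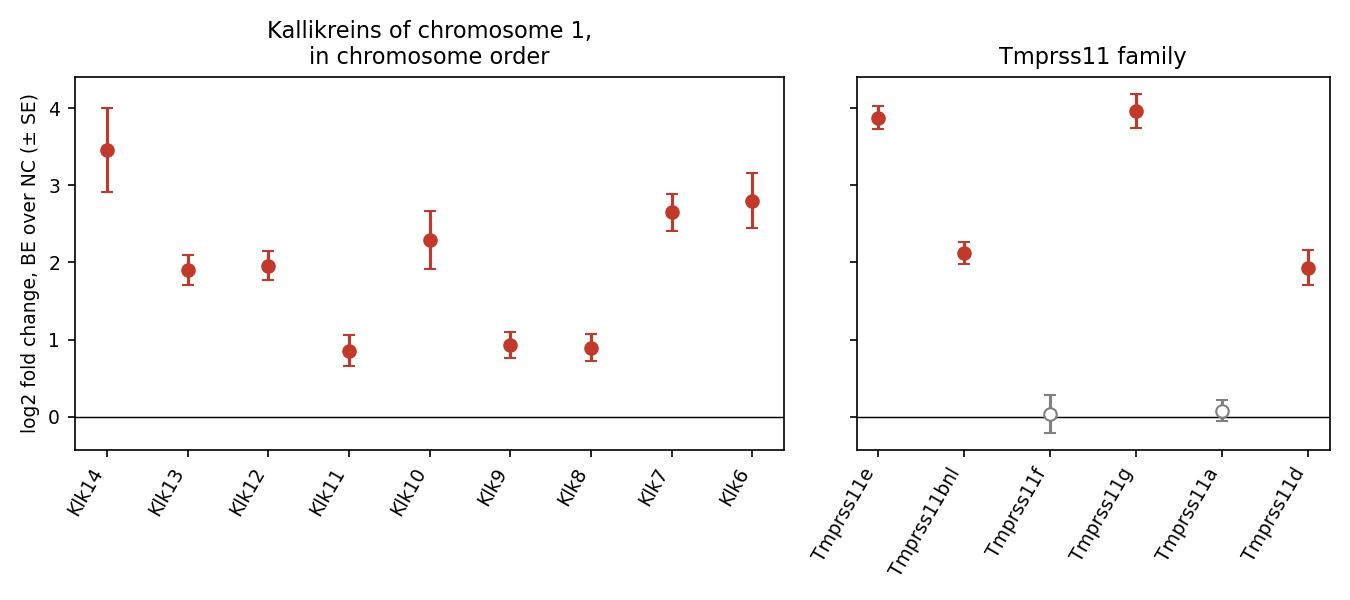
Log2 fold change of BE over NC with its SE for 9 kallikreins in their chromosome order (left) and 6 Tmprss11 genes (right), filled red where called higher and open grey where not. Klk11, Klk9 and Klk8 lie near 0.9 and the other kallikreins at 1.9 or more, while Tmprss11f and Tmprss11a lie at 0.04 and 0.08.

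The member levels were then set against squamous markers, as a description without a test. Suprabasal marker genes had a median log2 fold change of 0.41 over 9 tested, and 8 basal ones, among them Krt14 and Tp63, a median of 1.13. Krt4 and Krt13, the largest parts of the suprabasal sum in both groups, rose by 0.41 and 0.42 on the log2 scale. Per 1000 CPM of summed suprabasal markers, the same 8 members were higher in every BE library than in every NC library, with a median log2 ratio of 1.52 over all 10. Per 1000 CPM of summed basal markers this held for 3 of 10, Klk6, Klk7 and Klk10, and the median was 0.26. The share of all genes with such a gap was not computed on either scale, so these counts have no background beside them. On the basal scale Klk6 stood at 3.92, 4.99 and 4.81 in BE and 1.5, 1.51 and 3.34 in NC. Klk10 was barely clear, with its lowest BE value at 31.08 and its highest NC value at 30.96. Klk8 was lower in BE, at 17, 9.66 and 12.5 against 18.5, 22.9 and 24.4 in NC, as was Klk11, at 5.91, 4.62 and 6.58 against 7.99, 10.5 and 11.3. Spink5, by its row with more counts, was at 5.07, 9.46 and 9.78 in BE and 14.0, 10.6 and 32.5 in NC. Tmprss11a was at 26.5, 24.7 and 28.7 in BE and 73.6, 78.0 and 91.6 in NC. Per 1000 CPM of suprabasal markers Tmprss11a was lower in every BE library too, at 3.42, 4.39 and 4.05 against 4.95, 4.61 and 5.52 in NC. The direction for Klk8, Klk11 and Spink5 thus turned with the basal scale, although the Spink5 difference in CPM had not passed. In the basal sum Krt14, the largest part in BE but not in NC, averaged 3482 CPM in BE and 292 CPM in NC. The part of epithelial makeup in the member rises was not tested.

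**Figure D3:**
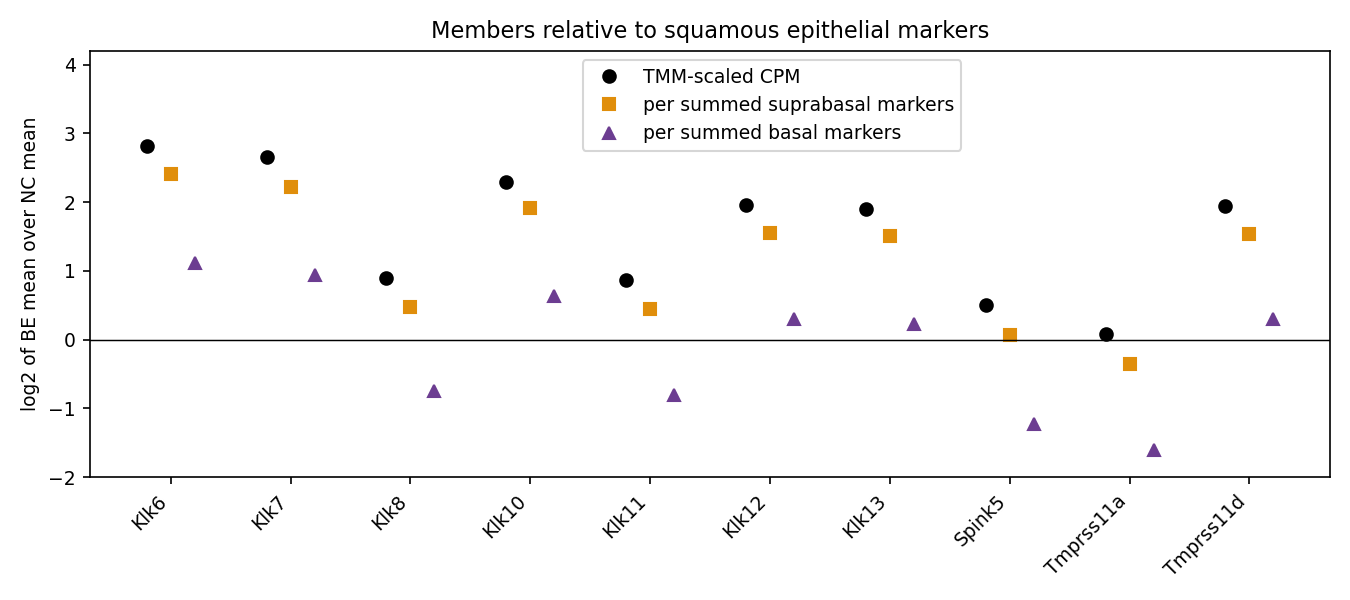
Log2 of the BE mean over the NC mean (n = 3 each) for the 10 members, as TMM-scaled CPM (black circles), per summed suprabasal markers (orange squares) and per summed basal markers (purple triangles). The squares lie close under the circles, and the triangles lie below 0 for Klk8, Klk11, Spink5 and Tmprss11a.

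Proteases that act upstream of kallikreins or beside them were counted against the 21.8% of all genes called in each direction. Of 17 tested membrane and epithelial serine proteases outside the 10, 8 rose, none fell and 9 did not pass, with a median log2 fold change of 0.07. This list includes Tmprss11e, Tmprss11g, Tmprss11bnl and Tmprss11f, given above. St14 (matriptase), which starts the kallikrein cascade in mouse epidermis, averaged 90.0 ± 6.63 CPM in BE and 36.2 ± 4.13 CPM in NC, a log2 fold change of 1.31 ± 0.13 (edgeR adjusted p = 3.66e-05). Its partner Prss8 (prostasin) was at 57.8 ± 15.6 CPM in BE and 55.3 ± 15.3 CPM in NC, and Tmprss4 at 95.7 ± 22.6 and 91 ± 12.9 CPM, and neither passed. Of 14 tested enzymes of cornification and surface cell turnover, 8 rose, 2 fell and 4 did not pass, against the same 21.8% each way. The transglutaminase Tgm1 and cathepsin C (Ctsc) rose by 1.99 and 1.58, while caspase 14 (Casp14), which processes filaggrin, fell by 1.44 and steroid sulfatase (Sts) by 1.00 on the log2 scale.

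Inhibitors of such proteases rose in part. Of 26 tested beside Spink5, 14 rose, 4 fell and 8 did not pass, beside 21.8% of all genes called higher and 21.8% lower, with a median log2 fold change of 0.67. Serpinb3a, a serpin of squamous epithelium, averaged 4929 ± 143 CPM in BE and 791 ± 131 CPM in NC, a log2 fold change of 2.64 ± 0.14 (edgeR adjusted p = 4.67e-07). The stefin Stfa3, an inhibitor of cysteine proteases, rose by 2.94 and Serpinb3 by 6.11. Spint2, a Kunitz inhibitor of matriptase and prostasin, rose by 1.15. Wfdc5 (49.4 ± 3.68 CPM in BE and 41.1 ± 7.16 CPM in NC) did not pass. The 4 that fell were Spink8, Wfdc12, Serpinb6 and Serpinb8, with log2 fold changes of -3.79, -2.30, -1.32 and -0.64. Spink8 was near the floor, with 3, 8 and 0 counts in BE replicates 1 to 3 and 36, 46 and 29 in NC replicates 1 to 3. Serpins and stefins are multigene families too.

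Of 16 tested genes listed as substrates and receptors of kallikreins or membrane proteases, 15 rose, beside the 21.8% of all genes. Their median log2 fold change was 1.36, and F2r did not pass. The list is broader than direct targets, since it counts Jup and Pkp1, desmosomal proteins inside the cell. These rose by 0.86 and 1.00 on the log2 scale. The desmosomal cadherins Dsc2 and Dsg3 had log2 fold changes of 1.57 ± 0.12 and 1.49 ± 0.13, and E-cadherin (Cdh1) one of 1.68 ± 0.10. F2rl1, the protease-activated receptor PAR2, averaged 25.9 ± 3.95 CPM in BE and 11.3 ± 1.19 CPM in NC, a log2 fold change of 1.2 ± 0.21 (edgeR adjusted p = 0.00105). Scnn1g, the gamma subunit of the sodium channel that membrane proteases cleave, averaged 52.3 ± 6.17 CPM in BE and 6.53 ± 1.2 CPM in NC, a log2 fold change of 3.00 ± 0.20 (edgeR adjusted p = 2.90e-06).

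**Figure D4:**
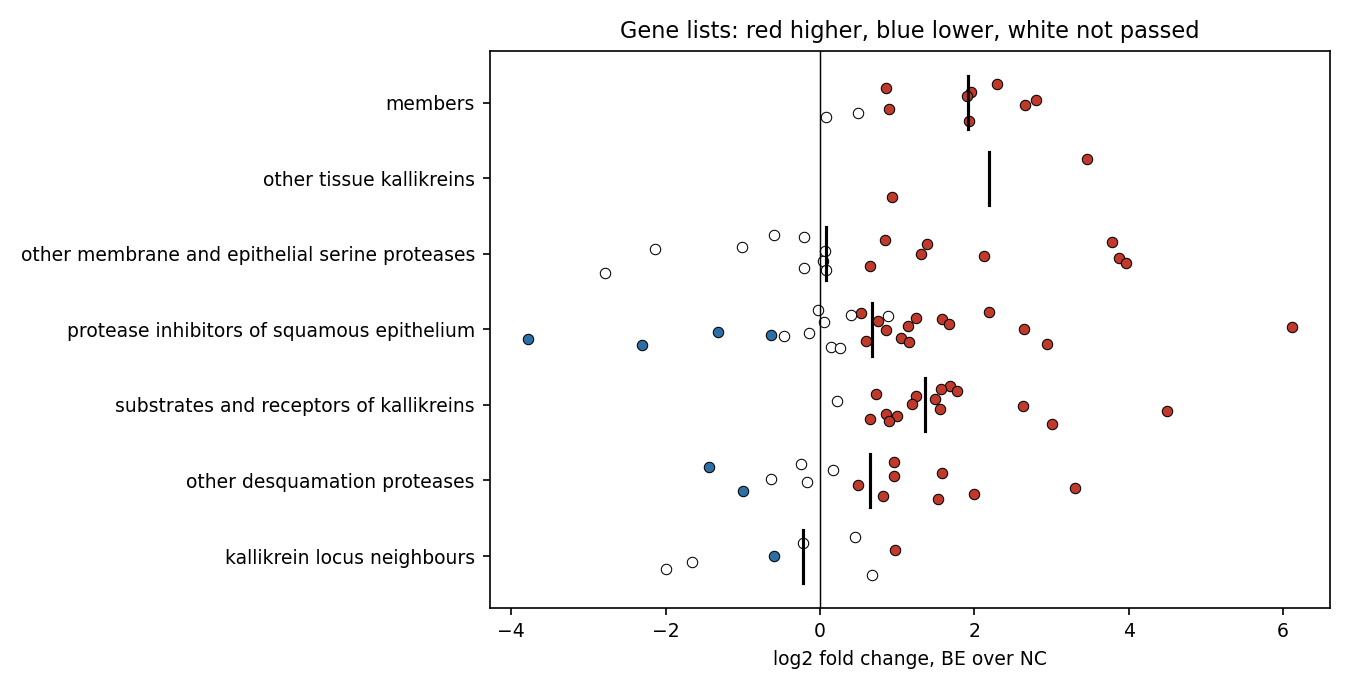
Log2 fold change of BE over NC for each tested gene of the member set and 6 related lists (1 point a gene, red called higher, blue called lower, white not passed), with a black line at each median. The member median lies at 1.92 and that of the locus neighbours at -0.22.

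Markers of other cells that make serine proteases were summed as well. Sums over 9 mast cell and neutrophil markers were 118 to 660 CPM in BE and 49.4 to 59.1 CPM in NC, with S100a8 and S100a9 at 154 ± 119 and 209 ± 156 CPM in BE and 1.95 ± 1.18 and 4.98 ± 4.90 CPM in NC (SD, n = 3 each). S100a8 and S100a9 made up most of each BE sum, so the sums do not describe the proteases of the list. The mast cell proteases of the list were mixed. Cma1 and Cpa3 were called lower, with log2 fold changes of -1.32 and -1.09. Mcpt2 and Tpsab1 were near the floor, at means of 1.88 and 2.24 CPM in BE and 0.257 and 0.834 CPM in NC. For both, every BE library lay above every NC library, as in 28.2% of all genes tested. Neither passed, with log2 fold changes of 2.77 ± 1.06 and 1.46 ± 0.83 (SE). Tpsb2, at 0.01, did not pass either. The neutrophil gene Mpo had no counts in BE. Of 4 pancreatic acinar markers, sums were 0.619 to 2.42 CPM in BE and 8.40 to 10.9 CPM in NC. The NC sums were nearly all Cpa1, at 10.8, 9.13 and 8.40 CPM in NC replicates 1 to 3. Cpb1 and Cela3b had no counts in NC, and 16 and 6 counts in BE replicate 1.

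In the IP libraries, peaks were asked which member transcripts carried m6A and whether this differed between the states. Klk7, Klk8 and Spink5 had a peak in all 6 lists, while Klk10, Klk12, Klk13 and Tmprss11a had none in any list. Thus 3 of 10 members had a peak in all 3 BE lists and 4 of 10 in all 3 NC lists, the additional NC gene being Klk11. With a score (-10 times log10 of the caller's p) of at least 100 the NC count was 2 and the BE count still 3, since Klk11 in NC IP replicate 1 and the Klk8 window in NC IP replicate 3 scored 60.5 and 51.05. Among 13638 tested genes with a symbol, these shares were 53.5% and 52.6%, and 46.9% had a peak in all 6 lists. In all BE lists and no NC list, 1.83% of genes and none of the members had a peak. No peak in any list was found for 26.8% of these genes, and for 21.9% of the 3730 with a mean of at least 50 CPM, where Klk10, Klk13 and Tmprss11a belong.

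Peak coordinates are those of the lists, on a genome build that the sources used here do not name, with the first base counted as 1. Fold enrichment is the authors' own value for each peak and serves to describe it. Of 23 merged windows on members, 3 had a peak in all 6 lists, beside 39.0% of all 26983 merged regions. Of the 23, Spink5 held 8 on chromosome 1 and 7 on chromosome 18, with matching copies counted apart. The kallikreins and Tmprss11d held the other 8. All Klk windows lie on chromosome 1, and their place in exons, introns or UTRs was not analysed here. Klk8 had a window at chr1:100803926-100804472 in every list, with fold enrichments of 16.3, 19.3 and 16.4 in BE IP replicates 1 to 3 and 26.1, 23.6 and 6.99 in NC IP replicates 1 to 3. NC IP replicate 3 was the lowest of the 6. Another Klk8 window, chr1:100810572-100810769, had a peak in BE IP replicates 2 and 3 (8.28 and 6.98) and in NC IP replicates 1 and 2 (9.11 and 7.85).

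Klk7 had its main window of 984 bp at chr1:100822469-100823452, with fold enrichments of 13.9, 14.6 and 15.8 in BE and 15.2, 16.0 and 14.5 in NC. These values interleave, although the input RNA of Klk7 differed 6.29-fold. A second Klk7 window, chr1:100820162-100820409, was called in the 3 BE lists (6.97, 8.55 and 5.49) and in no NC list, a pattern that 4.33% of 26983 merged regions on tested genes showed. Input counts of Klk7 were 661 to 1157 in BE and 82 to 114 in NC, so that depth at this gene moves with the pattern, and its part was not tested.

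Klk11 went the opposite way to its RNA. Its only window, chr1:100780866-100781044, had a peak in the 3 NC lists (7.30, 16.2 and 8.29) and in no BE list, with input counts of 746 to 973 in BE and 186 to 439 in NC. Such a region made up 2.55% of the merged regions, and of the genes tested, 1.7% had a peak in all NC lists and no BE list. The peak of NC IP replicate 1 had a score of 60.5, near the lowest score of 50 in the lists. Among the remaining kallikreins and Tmprss11d, single lists held a peak: Klk6 in BE IP replicate 1 (5.93) and Tmprss11d in NC IP replicate 1 (6.83 at chr14:23288848-23289174).

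Spink5 peaks fell on 2 chromosomes, with 8 windows on chromosome 1 and 7 on chromosome 18, all assigned to the same transcript. Of these, 6 windows on each chromosome matched in width and lay at a constant offset of 201644457 bp, so that the lists hold 9 distinct windows rather than 15. RefSeq places a single Spink5 in GRCr8, on chromosome 18. The window at chr18:34842747-34842874 had a peak in all 6 lists, with fold enrichments of 5.18, 6.26 and 5.05 in BE and 6.36, 5.67 and 6.79 in NC. Its partner at chr1:236487204-236487331 was called only in BE IP replicate 2, at 10.5. Spink5 had 9, 8 and 7 peaks in BE IP replicates 1 to 3 and 7, 5 and 1 in NC IP replicates 1 to 3, and which expression row belongs to which chromosome is not given in the table.

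**Figure D5:**
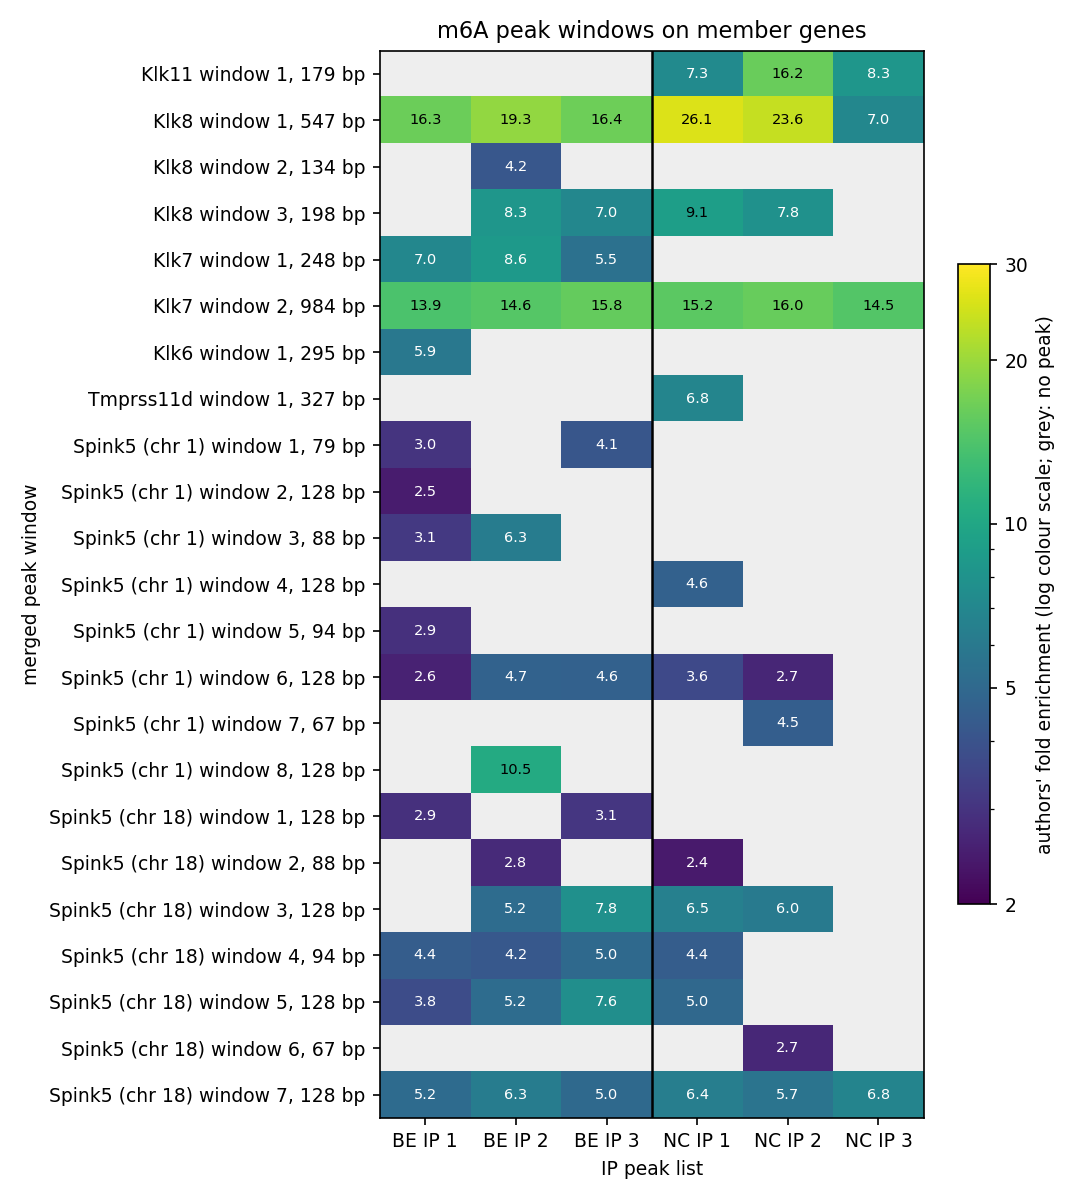
The authors' fold enrichment of each merged peak window on a member gene (rows, with width in bp) in each IP peak list (columns, BE left of NC), on a log colour scale with grey for no peak. Klk8 window 1, Klk7 window 2 and Spink5 chromosome 18 window 7 are filled in all 6 lists, Klk7 window 1 in the 3 BE lists and Klk11 in the 3 NC lists.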

How the data were processed

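Total RNA was pulled down with an m6A kit, and whole-RNA libraries were prepared from pull-down (IP) and input, per the labels' protocols. The submitters' processing notes name cutadapt 1.9.3 and HISAT2 2.0.4. The sources used here do not give genome build, annotation, counting tool, strand use or the peak caller's version and control.

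The authors deposited raw read counts per gene for the 6 input libraries, and 6 further per-sample columns of normalized values were not used. The deposited peak lists, 1 per IP library, give fold enrichment (a ratio) and a score, -10 times log10 of p, per the file headers. Peak names carry the name MACS.

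The fit used edgeR 4.0.16 under R 4.3.3 (filterByExpr with a minimum count of 10, TMM, robust quasi-likelihood test, BE against NC, no covariates, Benjamini-Hochberg threshold 0.05), leaving 13761 genes tested. SE is the log2 fold change over the square root of F. For repeated symbols the row with most counts was used. Libraries of a group differed by a chi-square of 19.9 to 77.1 per gene, so none was a copy. Peaks were merged per gene at an overlap of 1 bp, and coordinates were assumed to count from 0. Alternatives were RLE scaling, DESeq2 1.42.0, voom of limma 3.58.1, no filter, a replicate block, leaving out libraries and stricter peaks. Every member was named. From other lists, up to 6 genes by adjusted p and up to 2 abundant ones that did not pass were eligible, as were marker genes by level and genes needed to complete small counts. Prss8, Spint2, F2rl1, Jup, Pkp1, Cdh17, Lgals4, Krt20 and Fabp2 are outside this rule and were chosen after their values were seen. Members, lists and motifs were chosen with earlier results of these data known. Figures used matplotlib 3.10.9.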

Additional observations from a re-analysis of the deposited data

How the results depend on the processing

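The count of 8 members higher and none lower was the same under RLE scaling, DESeq2, voom with quality weights, no filter on low counts, the replicate block, each left-out input library and the summed Spink5 rows, the last chosen after seeing the data. Over those 12 alternatives, the lowest log2 fold change of a called member was 0.67 (Klk11) and the highest 3.29 (Klk6), and the highest adjusted p was 0.0368 (Klk11). The log2 fold change of Tmprss11a, not called in any, turned to -0.046 without NC input replicate 1 and ranged up to 0.19 over left-out libraries. Over left-out libraries, genes called higher ranged from 2474 to 3040 and genes called lower from 2424 to 3114, against 2999 and 2996 in all libraries. With the replicate number as a block they were 2540 and 2683. Deviations of same-numbered samples correlated at -0.04, 0.01 and -0.07, so the numbers were not taken as pairs. With a score of at least 100, members with peaks in all NC lists fell to 2 from 4, as Klk11 in NC IP replicate 1 and Klk8 in NC IP replicate 3 lay below it, at 60.5 and 51.05. IP depth is unknown, so no interval is given for peaks.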

Other observations

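Klk9, a kallikrein outside the members, carried a single peak, at chr1:100802365-100802754 in NC IP replicate 3, with a fold enrichment of 24.7. It lies next to the Klk8 window at chr1:100803926-100804472, whose lowest fold enrichment, 6.99, was in that same list. Ctu1, which flanks the cluster, had a window in all 6 lists, at 13.3, 14.0 and 12.5 in BE and 17.4, 13.7 and 13.1 in NC. Past the Klk6 window, peaks named for LOC687873 lay at chr1:100852017-100852281 in NC IP replicate 2 (3.67) and chr1:100853810-100854066 in BE IP replicate 3 (4.91). Klk14, the kallikrein with the largest rise, had no peak in any list.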
